A study of Mus musculus with 8 samples.

Results

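The circadian clock genes measured here are the transcription factors Arntl and Clock, their repressors Per1, Per3, Cry1 and Cry2, the nuclear receptors Nr1d1 and Nr1d2, and the output factor Dbp. They were chosen by name: a probe belonged to the set when its only gene symbol in the platform annotation was one of 10 clock genes. Of these 10 genes 9 were found, on 11 probes, among 13661 genes with a single symbol, and Per2 had no probe under that rule and was not analysed here. Clock and Nr1d2 had 2 probes each, and the other genes had 1.

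In nearly all cells of the body the proteins of Arntl (also called BMAL1) and Clock bind together to E-box sequences and switch on Per, Cry, Nr1d1, Nr1d2 and Dbp. The Per and Cry proteins then return to inhibit Arntl and Clock, which closes a loop of about a day. In a second loop Nr1d1 and Nr1d2 (REV-ERB alpha and beta) repress Arntl and Clock through sequences that ROR activators also bind. In the heart, as in other organs, Arntl is therefore highest when Nr1d1 and Dbp are lowest, and the clock gives a daily rhythm to genes of fuel use and of the heart's electrical activity.

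The hearts came from C57Bl/6 mice, 8 to 10 weeks old, and each was taken whole. In 4 mice a permanent ligature closed the left coronary artery at its descending branch, which left an infarct. In 4 sham controls the chest was opened and the suture placed but left untied. Both groups received ketamine and xylazine, and were kept with 12 h of light and 12 h of dark. Each heart was hybridised to its own 2-colour array of 70-mer oligonucleotides, with a green-labelled reference pool of adult mouse tissues, among them stomach, lung, liver, gonads and heart itself. Neither the time of day at which hearts were taken nor the time since ligation was given in the sources used here. Pooling is not mentioned for the hearts, and p-values measure the spread between these arrays.

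A level below is the log2 of a spot's signal over the median signal of its printed block, so 0 is the median spot of the block. Levels are set against that median spot and between arrays, and no order between genes is drawn from them. The 8 arrays held 19704 to 24819 values of 33600 spots. Sham replicate 4 had the fewest values and correlated least with the other sham arrays (r = 0.86 to 0.886 across features), whereas infarcted arrays correlated at 0.928 to 0.955 with each other. The deposited values hold the signal of 1 channel only, and no source says which. The heart channel is assumed, and this was not tested. If the values were those of the reference channel, the group differences below would not be differences between hearts. Heart muscle genes lay above the median spot: Actc1, cardiac actin, had levels of 6.03 to 6.64 on the 5 arrays with a value, and Ttn, titin, 3.67 to 3.99 on all 8. Many heart muscle values were missing, and 4 of the 9 such markers on the array could be tested. Genes typical of other tissues in the reference pool lay above the median spot too. Testis and stomach genes, in lists chosen after seeing the data, had list means of 2.60 to 4.05 and 2.13 to 3.63 on sham arrays. Brain genes, chosen in the same way, had list means of -1.09 to 0.31 there. The liver genes Apoa1 and Ttr had mean levels of 3.56 and 4.17 on sham arrays, and the lung genes Sftpc and Scgb1a1 3.35 and 4.49. Means over these 4 liver and lung genes were 4.27, 2.91, 4.40 and 3.98 on sham replicates 1 to 4, and 2.46, 2.46, 2.44 and 3.12 on infarcted replicates 1 to 4. These means were higher on 3 sham arrays than on any infarcted array.

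The promoters of the 3 members whose groups did not overlap are shown first, because Nr1d1 acts on both of the others. All 9 members matched an entry of the RefSeq promoter table (build GRCm38.p6), with 13 start sites in all. The 250 bases upstream of the start (the first listed for Arntl, the most upstream for Clock) are given 5′ to 3′ on the gene's strand, and capitals would mark an E-box (CACGTG), a D-box (TTATGTAA) or AGGTCA, the core of the element bound by ROR and REV-ERB. Their positions in order are chr11:98775378-98775627 (minus strand), chr7:113207215-113207464 (plus strand) and chr5:76304793-76305042 (minus strand).
Nr1d1: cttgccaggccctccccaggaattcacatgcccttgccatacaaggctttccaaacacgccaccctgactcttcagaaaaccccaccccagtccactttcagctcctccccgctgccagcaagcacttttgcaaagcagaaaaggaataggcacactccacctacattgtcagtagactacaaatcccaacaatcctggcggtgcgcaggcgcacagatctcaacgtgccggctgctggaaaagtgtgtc
Arntl: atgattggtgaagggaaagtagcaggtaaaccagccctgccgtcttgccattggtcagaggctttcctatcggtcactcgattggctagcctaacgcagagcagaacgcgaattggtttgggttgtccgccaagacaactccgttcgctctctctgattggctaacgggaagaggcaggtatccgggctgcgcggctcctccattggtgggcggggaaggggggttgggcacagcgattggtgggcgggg
Clock: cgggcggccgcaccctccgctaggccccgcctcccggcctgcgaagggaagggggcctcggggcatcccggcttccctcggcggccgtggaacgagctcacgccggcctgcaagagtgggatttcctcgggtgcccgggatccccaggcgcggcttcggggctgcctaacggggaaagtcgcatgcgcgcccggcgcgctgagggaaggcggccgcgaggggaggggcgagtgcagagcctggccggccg

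None of these 3 stretches holds one of the searched letter runs, which says nothing about binding outside them or to variant sites. The matches lay elsewhere in the windows, which run from 250 bases before to 50 after each start and were searched on both strands. AGGTCA was found for 4 of 9 members (Arntl, Clock, Per1 and Nr1d2), against 18.1% of all 27025 genes in the table. In Arntl it began at position 32 after its second listed start (chr7:113207530-113207559), and in Clock, on the opposite strand, at position -119 from the third listed start (chr5:76303604-76303633). In Nr1d2 it began at position -77 (chr14:18239166-18239195), and in Per1, on the opposite strand, at position -137 (chr11:69098800-69098829). The E-box was found for 2 of 9, Per1 at position -166 (chr11:69098771-69098800) and Cry1 at position -60 (chr10:85185097-85185126), against 8.09% of genes. Per3 alone held the D-box, the site of Dbp and its relatives, at positions -205 (chr4:151044851-151044882) and -158 (chr4:151044804-151044835), against 1.11% of genes. Each match is given with its flanks, in the order Arntl, Clock, Nr1d2, Per1, Cry1 and Per3, with the matched letters in capitals.
Arntl AGGTCA: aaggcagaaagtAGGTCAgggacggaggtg
Clock AGGTCA, reverse strand: agctttggcctcTGACCTgacagatgacag
Nr1d2 AGGTCA: gattggaagaagAGGTCAggaccgctcgtt
Per1 AGGTCA, reverse strand: gtgacacagcccTGACCTcagtgggggcca
Per1 E-box: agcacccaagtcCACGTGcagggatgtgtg
Cry1 E-box: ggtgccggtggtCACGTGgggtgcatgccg
Per3 D-box at -205: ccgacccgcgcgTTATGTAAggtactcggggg
Per3 D-box at -158: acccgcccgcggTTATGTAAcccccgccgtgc

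Arntl and Clock, the activating pair of the clock, had higher levels on every infarcted array than on any sham array with a value, and Nr1d1, their repressor, had lower ones. None of the 3 passed the test across all features. In all, 0 of 9 members passed (limma, adjusted p under 0.05), where 0.549% of all 18044 features did, 0.0554% higher and 0.493% lower. At an unadjusted p under 0.05 there were 3 of 9 members, where 12.3% of all features lay under that p. By direction it was 2 members higher, against 3.46% of features, and 1 lower, against 8.82%. The groups did not overlap for the same 3 of 9 members, against 8.89% of all features. Infarcted arrays were all higher for 2.62% of features and all lower for 6.27%. The members were chosen with earlier results of these data known, so their counts are no test of the clock as a set. In whole hearts fewer cells of a type and less RNA per cell cannot be told apart. The 99th percentile of levels was 5.65 to 6.31 on sham arrays and 5.05 to 5.24 on infarcted arrays. After quantile normalisation Arntl differed by 1.75 ± 0.34, Clock by 0.73 ± 0.21 and Nr1d1 by -0.99 ± 0.32 (SE). Their limma adjusted p-values were then 0.128, 0.289 and 0.34. The part of the unequal range of levels in the 3 differences was not tested.

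Arntl had levels of -1.18, -2.50 and -1.10 on sham replicates 1, 3 and 4, and no value on sham replicate 2. On infarcted replicates 1 to 4 its levels were -0.09, 0.09, 0.24 and 0.31. Sham replicate 3 was far below the other sham arrays, with a signal of 55 scanner units where the lowest of any spot was 42, and the infarcted arrays had signals of 364 to 555. The difference was 1.73 ± 0.36 on the log2 scale (SE, 3 sham and 4 infarcted values, 3.32-fold, limma adjusted p = 0.084). It rests on 3 sham values, 1 of them near the lowest signal recovered. Without sham replicate 3 it was 1.28 ± 0.28 (adjusted p = 0.155). Without sham replicate 4 it was 1.98 ± 0.39 and passed (adjusted p = 0.0305), and it passed with array weights at 2.08 ± 0.34 (adjusted p = 0.0192). Over all settings tried its adjusted p ranged from 0.0192 to 0.259.

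Clock, the partner of Arntl in the DNA-binding complex, had levels of -0.41, -0.22, -0.39 and -0.34 on sham replicates 1 to 4. On infarcted replicates 1 to 4 the levels were 0.40, 0.45, 0.55 and 0.05. The 4 sham arrays lay close together, and infarcted replicate 4 was the nearest to them. The difference was 0.70 ± 0.21 (SE, n = 4 each, 1.63-fold, limma adjusted p = 0.185). Its 2 probes gave 0.64 ± 0.21 and 0.76 ± 0.23 when tested singly (adjusted p = 0.222 and 0.182), and neither overlapped. The first probe had levels of 0.73 to 0.94 on sham and 1.21 to 1.68 on infarcted arrays, and the second -1.70 to -1.37 and -1.12 to -0.40. Clock was among the least variable features within groups, at percentile 2.63 of within-group SD.

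Nr1d1, REV-ERB alpha, had levels of 3.10, 2.04, 3.16 and 2.99 on sham replicates 1 to 4. The infarcted arrays had 1.21, 1.80, 1.96 and 1.85. Sham replicate 2 lay only just above the highest infarcted array. The difference was -1.12 ± 0.31 (SE, n = 4 each, 2.18-fold lower, limma adjusted p = 0.152). Without sham replicate 2 it was -1.38 ± 0.25 (adjusted p = 0.0636), and with array weights it passed at -1.25 ± 0.27 (adjusted p = 0.0416). Its adjusted p over all settings ranged from 0.0416 to 0.354.

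**Figure D1:**
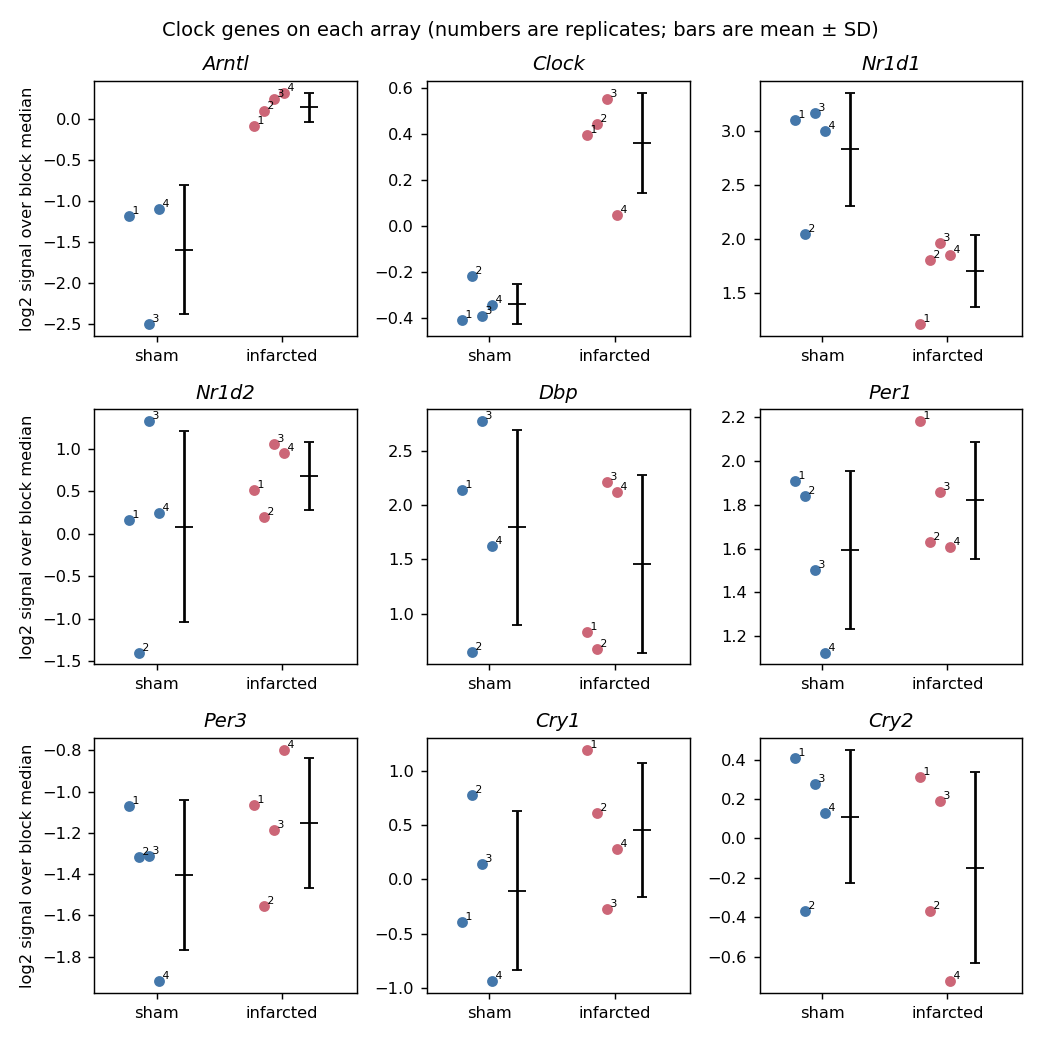
Level of each clock gene (y axis, log2 signal over the block median; scales differ between panels) on 4 sham and 4 infarcted arrays, with replicate numbers beside the points and the mean ± SD as a bar. Arntl and Clock are higher and Nr1d1 lower on every infarcted array, and the groups overlap in the other 6 panels.

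Nr1d1 was split across the arrays much as the liver and lung genes described above were, and Clock only in part. Nr1d1 was highest on sham replicates 1, 3 and 4, where the 4 liver and lung genes had means of 3.98 to 4.40, and lower on the 5 arrays where they had means of 2.44 to 3.12, sham replicate 2 included. Clock ran the other way, with its lowest levels on sham replicates 1, 3 and 4 and its highest on infarcted replicates 1, 2 and 3. Sham replicate 2, with a tissue mean of 2.91, broke this order. Its Clock level of -0.22 lay below that of infarcted replicate 4, 0.05, where the tissue mean was 3.12. The liver genes Apoa1 and Ttr themselves differed by -1.39 and -1.22 between the groups (limma adjusted p = 0.11 and 0.057), beside -1.12 for Nr1d1. Of 8 testis genes, a list chosen after seeing their values, all 8 had differences below 0, where 42.5% of all features had one above 0. Their list means were 2.60 to 4.05 on sham and 2.001 to 2.55 on infarcted arrays. Of the 8 genes 1, Prm2, passed, against 0.493% of features called lower. Since the list was chosen in that way, its counts are no test of a tissue signal. Brain genes, also chosen after seeing the data, had 2 differences above 0 and 4 below. Markers of macrophages and monocytes went in the direction of Arntl and Clock: 6 of 7 tested had differences above 0, against 42.5% of all features, 0 passed, and the list mean was -0.21 to 0.22 on sham and 0.56 to 1.15 on infarcted arrays. Fibroblast markers had 2 differences above 0 and 5 below, and endothelial markers 3 above and 3 below. Heart muscle markers had 3 above and 1 below, and the 1 skeletal muscle gene tested was above 0. The part of these tissue and cell signals in the 3 clock differences was not tested.

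**Figure D2:**
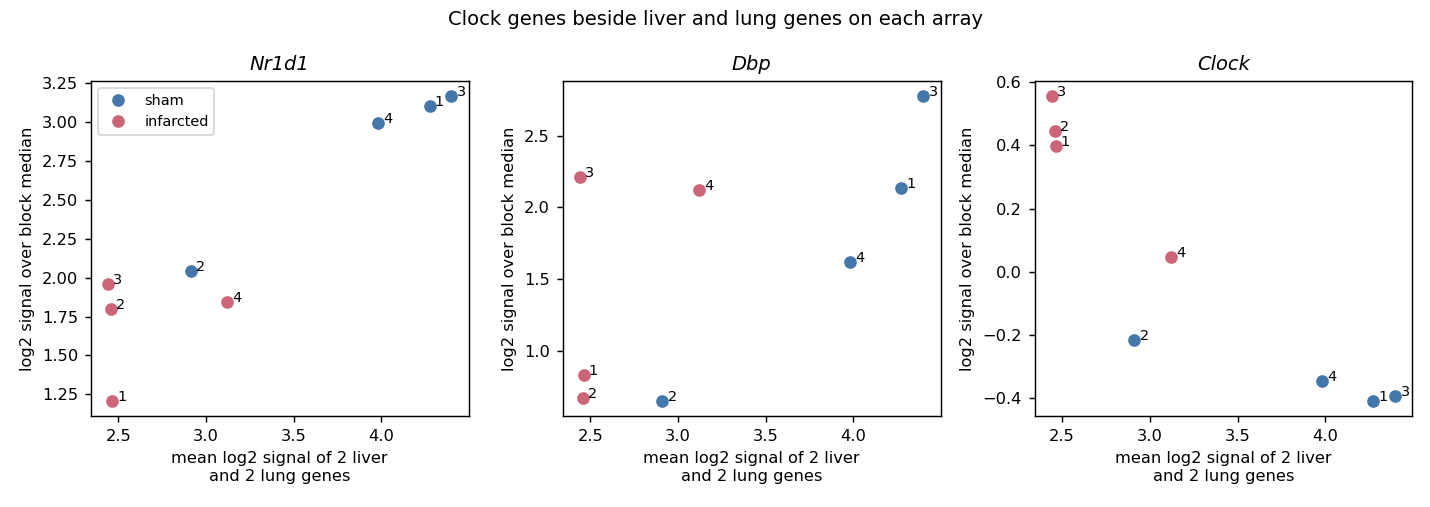
Levels of Nr1d1, Dbp and Clock (y axes, log2 signal over the block median) against the mean level of 2 liver and 2 lung genes (x axis) on 8 arrays, numbered by replicate. Nr1d1 is high and Clock low on the 3 sham arrays with tissue means of 3.98 to 4.40. Clock is low on sham replicate 2 as well, and Dbp is high on infarcted replicates 3 and 4 as well.

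For the other targets of Arntl and Clock the groups overlapped. Nr1d2, REV-ERB beta, which shares the repressor role of Nr1d1, had sham levels of 0.16, -1.40, 1.33 and 0.24 and infarcted levels of 0.52, 0.19, 1.06 and 0.95. Sham replicate 2 was the lowest and sham replicate 3 the highest of all 8 arrays, so the sham arrays enclosed the infarcted ones. The difference was 0.60 ± 0.50 (SE, n = 4 each, limma adjusted p = 0.695), opposite in sign to that of Nr1d1, and 0.10 without sham replicate 2. Both probes were positive, at 0.84 ± 0.58 and 0.36 ± 0.42. Dbp, a transcription factor of the PAR bZIP family that carries the clock's timing to metabolic genes, had sham levels of 2.14, 0.65, 2.78 and 1.62. Its infarcted levels were 0.83, 0.67, 2.21 and 2.12, so each group held both low and high arrays. The difference was -0.34 ± 0.51 (limma adjusted p = 0.849), -0.72 without sham replicate 2 and -0.01 without sham replicate 3.

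Among the repressors, Per1, which also answers quickly to hormones and stress, had sham levels of 1.91, 1.84, 1.504 and 1.12 and infarcted levels of 2.18, 1.63, 1.86 and 1.61. The groups overlapped, with a difference of 0.23 ± 0.25 (SE, n = 4 each, limma adjusted p = 0.786). Per3, the Per gene least needed for the rhythm itself, had sham levels of -1.07, -1.32, -1.31 and -1.92. On infarcted arrays it had -1.06, -1.56, -1.19 and -0.80, a difference of 0.25 ± 0.26 (adjusted p = 0.761). Cry1, a repressor that acts late in the cycle, had sham levels of -0.39, 0.78, 0.14 and -0.94 and infarcted levels of 1.19, 0.61, -0.27 and 0.28. Its difference was 0.56 ± 0.42 (adjusted p = 0.656), and the groups overlapped. For Cry2, its paralogue, sham levels were 0.41, -0.37, 0.28 and 0.13 and infarcted levels 0.31, -0.37, 0.19 and -0.72. The lowest array of Cry2 was infarcted replicate 4, and the difference was -0.26 ± 0.30 (adjusted p = 0.792).

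Whether the infarcted arrays shared a shift along the cycle was examined by setting the activating pair against its targets. The deviation from the sham mean was averaged on each array over Nr1d1, Nr1d2, Dbp, Per1 and Per3, the members that peak between midday and dusk in mice and are called evening genes here, and compared with that of Clock. Arntl was left out of this mean because it lacked 1 value, and no p is given for a score over chosen genes. The evening genes deviated by 0.27, -0.62, 0.51 and -0.17 on the sham arrays and by -0.24, -0.43, 0.20 and 0.17 on the infarcted arrays. Their group mean on infarcted arrays was -0.08 ± 0.31 (SD, n = 4), with a sham SD of 0.497. Clock deviated by 0.70 ± 0.22 (SD, n = 4) on infarcted arrays. The difference of evening genes minus Clock was -0.78 on infarcted arrays (SD 0.43) against 0 on sham arrays by construction (SD 0.58), and the ranges of -1.22 to -0.22 and -0.74 to 0.56 overlapped. With the median over the evening genes in place of the mean the difference was -0.43, and with Arntl included, over 7 arrays, it was -1.52. Only Nr1d1 of the 5 evening genes was below its sham range on all infarcted arrays.

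**Figure D3:**
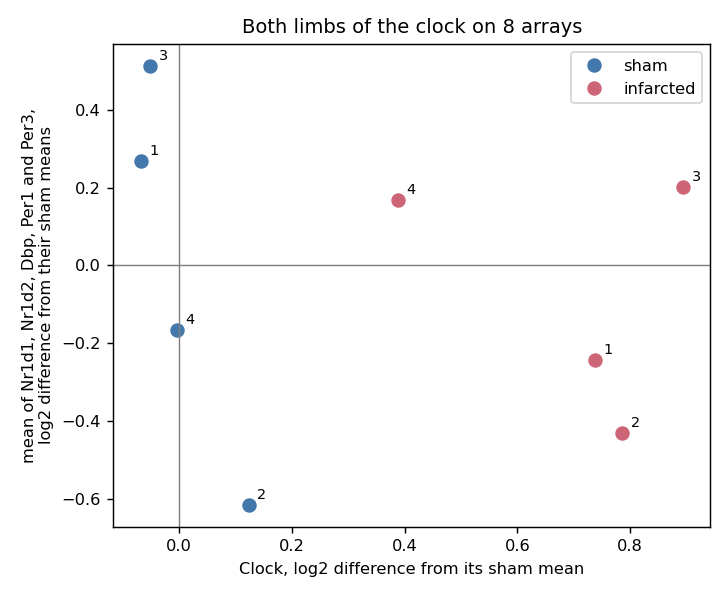
Mean deviation of Nr1d1, Nr1d2, Dbp, Per1 and Per3 (y axis) against the deviation of Clock (x axis), both as log2 differences from the sham mean, for 8 arrays numbered by replicate. Infarcted arrays lie to the right of all sham arrays, and on the y axis they span -0.43 to 0.20, within the sham range of -0.62 to 0.51.

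Within both groups arrays differed together in several clock genes. Sham replicate 2 and infarcted replicates 1 and 2 had the 3 lowest Dbp levels of the 8 arrays, 0.65 to 0.83 against 1.62 to 2.78. The same 3 arrays had the 3 lowest levels of Tef, a PAR bZIP relative of Dbp, at 1.51 to 1.84 against 2.17 to 2.69. They also had the 3 highest levels of Cry1, at 0.61 to 1.19 against -0.94 to 0.28. Npas2, which can replace Clock as the partner of Arntl, had its 3 highest levels there too, at -1.20 to -0.60 against -2.48 to -1.58. Nr1d2 followed in part, since sham replicate 2 was lowest but sham replicate 1 came next. Nr1d1 was lowest on sham replicate 2 among the sham arrays and on infarcted replicates 1 and 2 among the infarcted arrays, but over all 8 arrays its levels followed the groups. Per1, Per3 and Cry2 did not split the arrays this way. These 5 genes were picked out after their values were seen, and no source gives a clock time for the hearts. The liver and lung means were 2.46 to 2.91 on the 3 arrays. They were 2.44 and 3.12 on infarcted replicates 3 and 4, and 3.98 to 4.40 on sham replicates 1, 3 and 4. The part of tissue signals in this split was not tested.

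**Figure D4:**
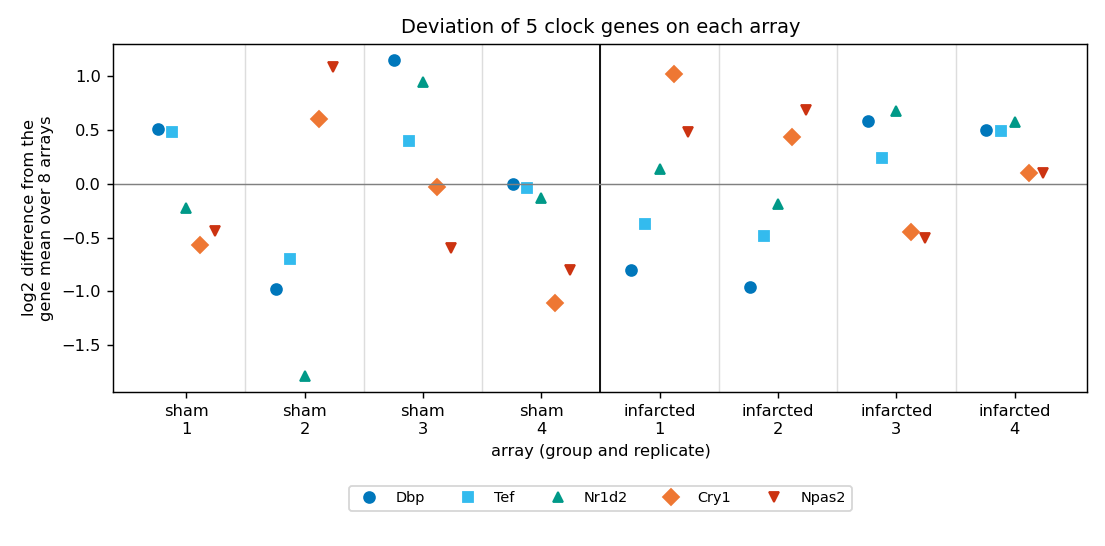
Difference of Dbp, Tef, Nr1d2, Cry1 and Npas2 from each gene's mean over 8 arrays (y axis, log2) on each sham and infarcted array. On sham replicate 2 and infarcted replicates 1 and 2, Dbp and Tef are below 0 while Cry1 and Npas2 are above it.

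The spread within groups was wide for the 3 members in this split. Dbp, Nr1d2 and Cry1 lay at percentiles 90.4, 89.7 and 81.2 of within-group SD among all tested features, with SDs of 0.86, 0.84 and 0.68 where the median feature had 0.429. Npas2 and Tef, the other genes of the split, lay at percentiles 83.4 and 62.5. Per1 and Per3 lay at percentiles 27.2 and 31.9, and Nr1d1 at 52.3.

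By a fixed rule, the genes most like Nr1d1 and Dbp over the 8 arrays were sought among 8845 genes with complete values. For Nr1d1 these were Apoc3, an apolipoprotein made in liver, with Pearson r = 0.98, Tmsb10 and Fabp9, a fatty acid binding protein of testis, each with r = 0.97, and Cpt1a and Ints9, each with r = 0.96. For Dbp they were Cyp2c65, a cytochrome P450, and Aldh3a1, an aldehyde dehydrogenase, each with r = 0.97, then Leap2, Rabepk and Cela3b, each with r = 0.96. These are descriptions over 8 arrays that share their normalisation, and are the top of many genes searched.

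Other genes of the clock gave no call either. Of 13 further core genes and modulators 8 were on the array and 6 could be tested, with a median difference of 0.08. Of these 6 genes 0 were past the threshold, against 0.549% of all features. At an unadjusted p under 0.05 there were 0, against 12.3%. In so few genes such counts say little. The 3 with the smallest p were Timeless (0.29 ± 0.22, SE), the repressor Bhlhe41 (-0.23 ± 0.20) and Npas2 (0.38 ± 0.43), with limma adjusted p of 0.656, 0.697 and 0.793. Of 15 kinases, ligases and partners that set the stability of clock proteins, 10 were on the array and tested, with a median of 0.04. Past the threshold were 0, again against 0.549% of all features. Csnk2a1, a catalytic subunit of casein kinase 2, was the 1 of 10 with an unadjusted p under 0.05, at 0.71 ± 0.28 (limma adjusted p = 0.331). Of all features 12.3% lay under that p in either direction. Next came Fbxw11 (0.28 ± 0.26) and Csnk1e (-0.25 ± 0.25), a kinase of the Per proteins.

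Of 18 outputs and rhythmic genes of the heart 17 were on the array and 15 tested, with 0 past the threshold in either direction, 9 below 0 and a median of -0.13, beside -0.08 for all features. At an unadjusted p under 0.05, 4 of 15 were lower, against 8.82% of all features, and 0 higher, against 3.46%. For 3 of 15 every infarcted array lay below every sham array, against 6.27% of features. The list was chosen with earlier results of these data known, so its counts are no test of clock outputs as a set. Pdk4, the kinase that turns off pyruvate dehydrogenase and a rhythmic gene of heart muscle, had sham levels of 5.37 to 5.80 and infarcted levels of 3.21 to 4.67, with no overlap (-1.72 ± 0.35, SE, limma adjusted p = 0.072). Ucp3, a mitochondrial carrier, had levels of 2.01 to 2.60 and 0.13 to 1.45, again without overlap (-1.23 ± 0.32, limma adjusted p = 0.132). Klf10, a transcription factor controlled by the clock, had levels of -0.25 to 0.33 and -1.61 to -0.64 (-0.997 ± 0.28, adjusted p = 0.164). The 4th, chosen after its value was seen, was Usp2, a deubiquitinase that is a direct target of Arntl and Clock, at -1.06 ± 0.33 (adjusted p = 0.21), whose groups overlapped by infarcted replicate 1. Klf15 and Kcnip2, which link the clock to nitrogen metabolism and to the heart's repolarising current, stood at -0.24 ± 0.30 and -0.07 ± 0.30.

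**Figure D5:**
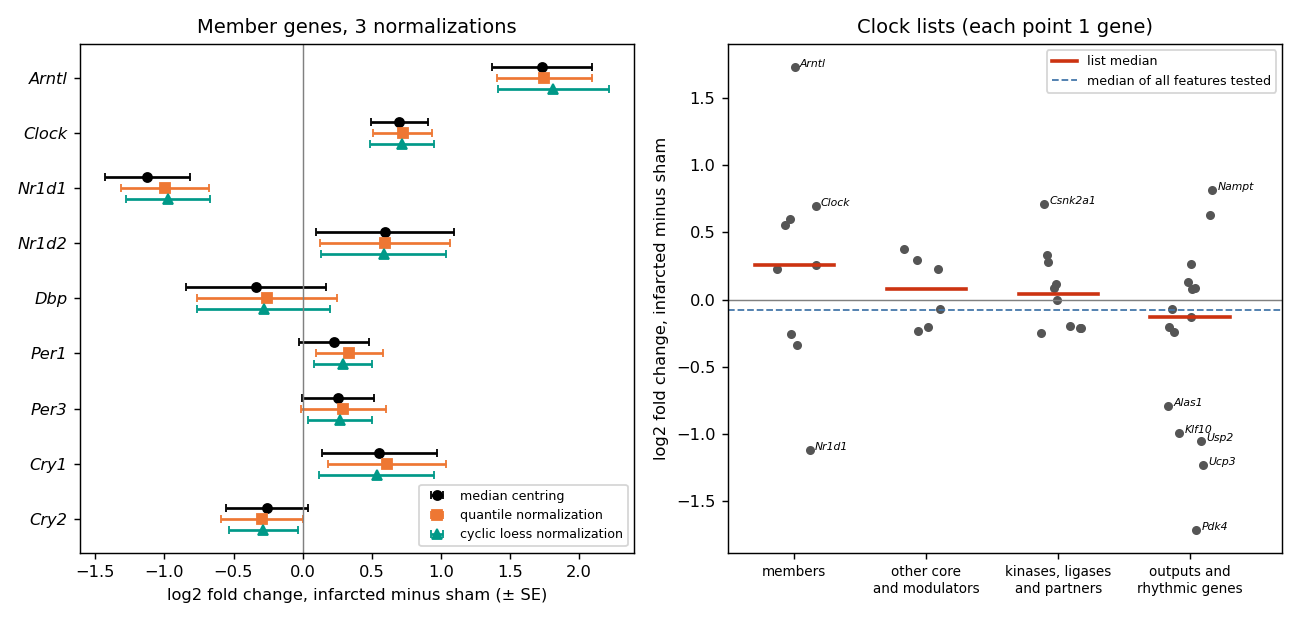
Left, log2 fold change (infarcted minus sham, ± SE of the limma fit) of each clock gene with arrays centred on the median, quantile normalised or loess normalised; the signs are the same under all 3. Right, fold changes of the tested genes in each clock list (1 point a gene, list median in red) beside the median of all features tested, -0.08.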

How the data were processed

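The deposited table holds log2 values, and neither software, background correction nor spot flags were given in the sources used here. Within each of 48 blocks of 700 consecutive spots on each array, 2 to the power of the deposited log2 value became a whole number when multiplied by 1 constant (tolerance 0.01), for 100% of values, with signals of 42 to 65466. Values were therefore read as 1 channel's signal over its block median. Each array was centred on its median, probes with the same single symbol were averaged, and features with at least 3 values in each group of 4 entered a linear model per feature (limma 3.58.1, lmFit then eBayes, under R 4.3.3), with Benjamini-Hochberg adjustment over 18044 features. The fit was tested on simulated data with independent noise and added changes larger than any clock gene difference given here. That test does not cover changes of their size. Fold changes are infarcted minus sham. The members and lists were chosen with earlier results of these data known. All members are described; of each list, those past the threshold or else the 3 with the smallest p were named, with the 5 genes most correlated with Nr1d1 (taken because Arntl lacks a value) and with Dbp. Alternatives were no centring, quantile and cyclic loess normalisation, other minimum numbers of values, array weights, single probes, the median over the evening genes, the replicate number as a block, and leaving out each array. Removing the median of each spot position across blocks, and adding Arntl to the comparison with the evening genes, were chosen after seeing the data. For arrays, their number limits the precision.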

Additional observations from a re-analysis of the deposited data

Results flagged for a closer look

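Nr1d1 on sham replicate 2 had a level of 2.04, against 2.99 to 3.16 on the other sham arrays. Its distance from the nearest sham array was 0.846 of the range of the group, above the limit used for 4 samples. Of 19 groups of values examined in this way 1 was marked, and chance alone marks about 1 in 20.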

How the results depend on the processing

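The number of features past the threshold, 99 in the reported fit, was 32 after quantile normalisation, 506 with array weights and 26 with spot position removed, and ran from 3 to 660 when single arrays were left out. It was 1 with the replicate number as a block. Deviations of same-numbered arrays correlated at 0.022, 0.311, -0.077 and -0.193. In the block fit the SE fell from 0.51 to 0.33 for Dbp and from 0.50 to 0.33 for Nr1d2. It also fell for Per1, Cry1 and Cry2, and rose for Arntl, Clock, Per3 and Nr1d1. Whether same-numbered arrays share more than a number was not tested. The number of clock genes past the threshold, 0 in the reported fit, was 2 with array weights (Arntl and Nr1d1), 0 to 1 when single arrays were left out (Arntl without sham replicate 4), and 0 in the block fit and the other settings tried. No clock gene changed sign in any setting tried. The difference of evening genes minus Clock ran from -1.02 to -0.59 when single arrays were left out, was -0.43 with the median over the evening genes in place of the mean, and -1.52 with Arntl included over 7 arrays. The cause of these shifts was not tested. Dim spots, such as that of Arntl on sham replicate 3 with a signal of 55 where the lowest was 42, limit what can be measured.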

Other observations

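Among the rhythmic genes of the heart, Fkbp5 and Nampt also differed between arrays of the same group, and were singled out after their values were seen. Fkbp5, a cochaperone induced by glucocorticoids, had a level of -1.499 on sham replicate 2 and 0.98 to 1.89 on the other 7 arrays. Nampt, the enzyme that sets the pace of NAD recycling and a target of the clock, had 0.75 on sham replicate 2 and 1.43 on sham replicate 4, against 1.78 to 3.42 on the other 6. Of tissues in the reference pool, stomach genes lay above the median spot, with list means of 2.13 to 3.63 on sham and 2.10 to 2.29 on infarcted arrays over 6 complete genes. Brain genes lay near or below it, with list means of -1.09 to 0.31 and -0.55 to -0.07, and of 6 kidney genes 1 could be tested. These lists were also chosen after seeing the data.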
